A study of Mus musculus with 18 samples.

Results

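Cluster 8 was the smaller of the 2 parietal clusters that the study drew in the corpus of the adult mouse stomach. Its members were all cells carrying the study's cluster number 8 in the corpus dataset, 244 of the 3993 kept cells of that dataset and of the 4484 kept cells of the series. The series measured single cells of gastric units by Quartz-Seq2, a plate method that counts unique molecular identifiers (UMIs) per gene in each well. In dataset 2, which holds cluster 8, corpus units of WT C57BL/6J male mice at 10 weeks of age were dissociated in 2 pools of 3 mice each, called K and T after the labels, and Hoechst33342(+),ToPro3(-) singlets were sorted into 6 plates of 384 wells per pool. Each pool was handled by its own operator, so mice and operator cannot be told apart. In dataset 1, corpus and antrum of mice of the same strain, sex, genotype and age were dissociated in 2 other pools of 3 mice. From these, ToPro3(-) cells, as the labels give the dye, were sorted into 6 plates. No mouse was treated, and both datasets leave out what the dissociation, filters and sort removed.

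Parietal cells secrete hydrochloric acid into the lumen of the gastric gland. An ATPase encoded by Atp4a and Atp4b exchanges protons for potassium at the apical membrane, and potassium and chloride channels return the ions it needs. The pump consumes so much ATP that parietal cells are packed with mitochondria. The cells arise from dividing progenitors in the isthmus of the gland and move away from it as they mature.

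The markers named for the cluster held in part. Atp4b, the beta subunit of the proton pump, reached a TMM-scaled CPM, a UMI count scaled to library size, of 16112 in pool K and 17693 in pool T of cluster 8. Its CPM was 25941 and 23044 in the larger parietal cluster, cluster 1, and 146 and 82.1 on average in the 5 isthmus clusters (3, 5, 6, 9 and 11). Kcnq1, a potassium channel of the acid-secreting membrane, stood at 680.5 and 697 CPM in cluster 8 and at 921 and 849 CPM in cluster 1, against at most 92.7 CPM in any of the other 12 epithelial clusters. Both genes therefore placed cluster 8 with cluster 1 and apart from those clusters. Pgc, the zymogen pepsinogen C of chief and neck cells, did not mark the cluster: its 15353 and 10891 CPM lay above the 4884 and 5794 CPM of cluster 1 but below the isthmus mean of 37015 and 35719 CPM and the 296345 and 290901 CPM of the chief cell cluster.

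**Figure D1:**
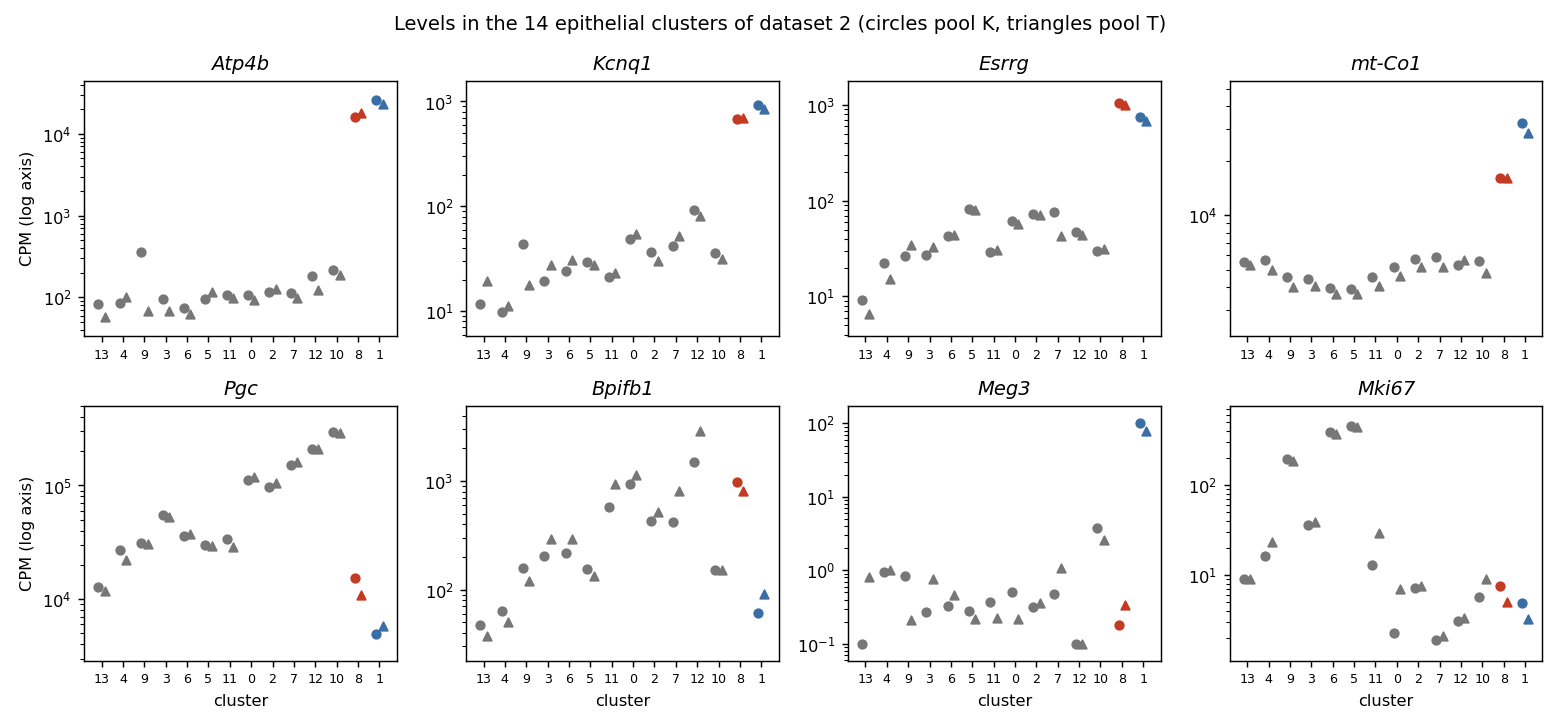
Levels of 8 genes (CPM on a log axis whose range differs by panel) in the 14 epithelial clusters of dataset 2, from mature pit cells (13) through pre-pit (4), isthmus (9, 3, 6, 5, 11), neck (0, 2, 7, 12) and chief cells (10) to cluster 8 (red) and cluster 1 (blue). Circles are pool K and triangles pool T, with values under 0.1 CPM drawn at 0.1. Both parietal clusters stand above all others for Atp4b, Kcnq1, Esrrg and mt-Co1, while summed levels of Bpifb1 and Meg3 differ between cluster 8 and cluster 1. Meg3 UMIs came from a minority of cluster 1 cells.

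Both pools supplied the cluster in similar numbers, 119 cells from pool K and 125 from pool T, with 12 to 24 cells on a plate of pool K and 15 to 29 on a plate of pool T. Cluster 1 held 281 cells of pool K and 177 of pool T. Of the parietal cells on a plate, cluster 8 made up 20.69% to 33.8% in pool K (median 31.1%) and 30.16% to 51.79% in pool T (median 43.0%), so the ranges overlapped. The mean share was 29.6% ± 4.95 (SD, n = 6 plates) in pool K and 42.2% ± 8.88 (SD, n = 6 plates) in pool T. It was 12.6 percentage points lower in pool K (exact two-sided permutation test over plates, p = 0.01515), a comparison of these pools alone since plates of a pool share their mice. Of all kept cells the mean share was 6.12% in K and 6.14% in T, and the mean number of cluster 1 cells per plate was 46.8 in K and 29.5 in T.

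Cells of cluster 8 were deeply sequenced. The 12 plates held 10540256 to 12850942 UMIs each (median 11869604), and all 384 well barcodes recurred on every plate, so a cell was identified by plate and barcode. Cluster 8 had a median of 51291.5 UMIs and 7109 detected genes per cell, and cluster 1 had 45390.5 UMIs and 6437.5 genes. The study's phase calls placed 237 cluster 8 cells in G1, 3 in S and 4 in G2/M, against 454, 4 and 0 in cluster 1. A well with RNA of 2 cells can remain after a singlet sort, and no doublet caller was run.

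The share of UMIs from mitochondrial genes was lower in cluster 8 than in cluster 1. Its median was 12.56% in cluster 8 (11.99% in pool K, 13.88% in pool T) and 22.75% in cluster 1 (23.12% and 21.79%). The 10th and 90th percentiles were 7.29% and 19.9% in cluster 8 and 16.5% and 36.2% in cluster 1, so the distributions overlapped: 75 of the 244 cells lay above the 5th percentile of cluster 1 and 14 above its median. Between pools, the plate medians of cluster 8 averaged 11.7% ± 1.46 in K and 13.4% ± 1.97 in T (SD, n = 6 plates each), a difference of -1.70 percentage points that did not pass (exact two-sided permutation test, p = 0.1126).

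Across 12922 genes tested, cluster 8 resembled cluster 1 more than any other epithelial cluster. The Pearson correlation of log2 CPM across genes, which are not independent replicates, was 0.975 in pool K and 0.981 in pool T with cluster 1, followed by 0.859 and 0.852 with neck cluster 2. To describe the difference, UMIs were summed per cluster and pool and compared with edgeR's quasi-likelihood test, a gene being called at a Benjamini-Hochberg adjusted p under 0.05 and at least a 2-fold difference. The study drew the clusters from these same counts, so calls describe how far the clusters stand apart and are no independent test. Against cluster 1, 291 genes were higher (2.25%) and 381 lower (2.95%) in cluster 8, 672 in all (5.2%). Without pool K of cluster 8 the total fell to 441, of which 380 were among the 672. Against the mean of the isthmus clusters, 2095 genes were higher (16.2%) and 2454 lower (19.0%). At the adjusted p alone, 12.3% of genes were higher and 14.9% lower than in cluster 1, and 34.6% and 36.2% than in the isthmus. Counts of list members below use the adjusted p alone unless a 2-fold difference is named, and are to be read against these shares.

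**Figure D2:**
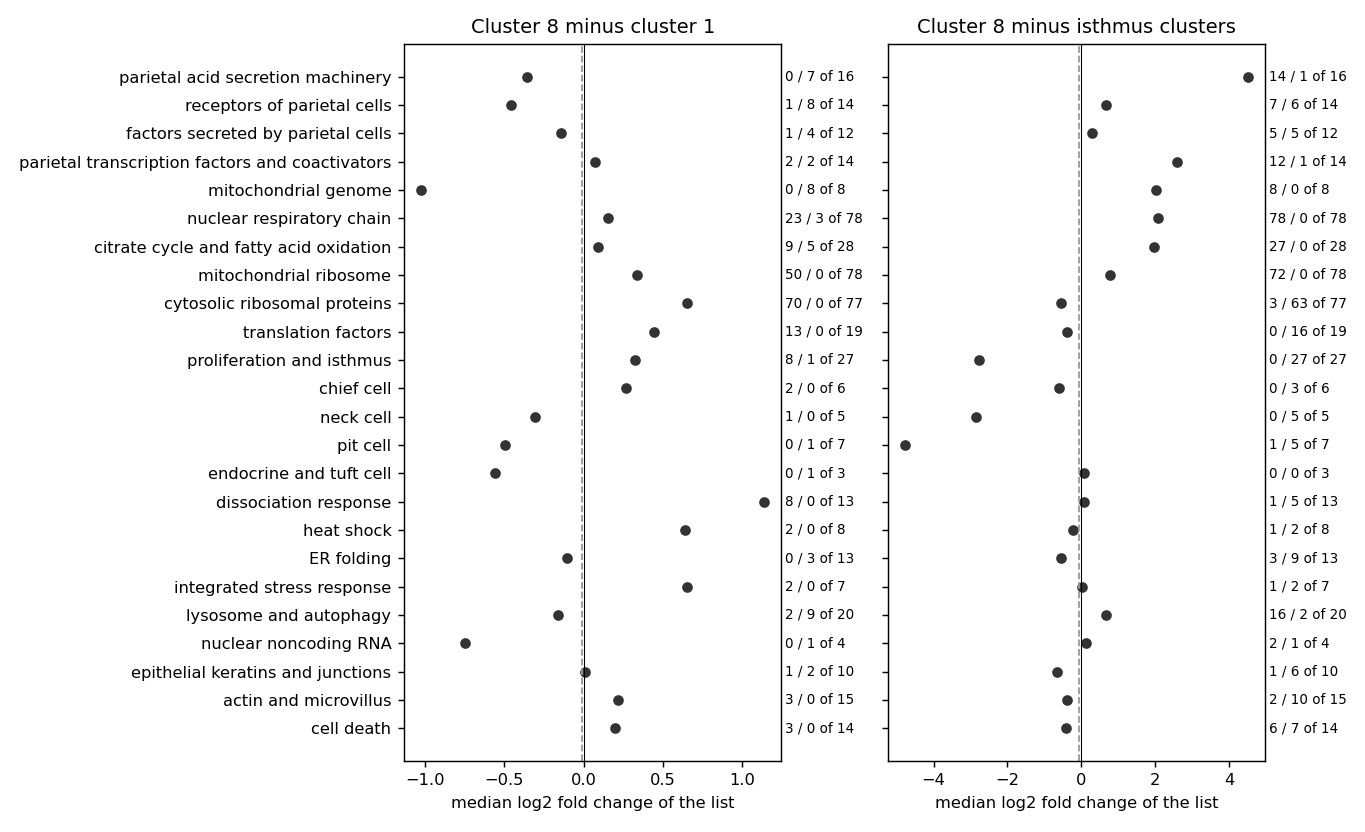
Median log2 fold change (x axis) of the 24 gene lists with at least 3 tested members, for cluster 8 minus cluster 1 (left) and minus the isthmus mean (right). Numbers give members called higher / lower of those tested, and the dashed line is the median of all 12922 genes; acid secretion genes and the mitochondrial genome lie left of it against cluster 1 and right of it against the isthmus, and ribosomal protein genes the opposite.

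Acid secretion genes were abundant in cluster 8 and tended to lie below cluster 1. Of 16 listed genes, 14 were higher than in the isthmus (13 by at least 2-fold, median log2 difference 4.51 against -0.05 over all genes). Slc9a4 was lower than in the isthmus (log2 difference -0.41 ± 0.07). Against cluster 1, 0 were higher and 7 lower, 2 of them by 2-fold, with a median of -0.35 against -0.01 over all genes. Their summed level was 49803 and 53455 CPM in cluster 8, 75604 and 69279 CPM in cluster 1, and 6452 and 6118.5 CPM in the isthmus.

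Within this list the pump itself was not called. Atp4a, the catalytic subunit, had 18268 CPM in K and 19639 CPM in T in cluster 8 against 30618 and 28063 CPM in cluster 1, a log2 difference of -0.63 ± 0.41 (SE) that was not called. Atp4b differed by -0.54 ± 0.35 and Kcnq1 by -0.36 ± 0.16, also not called, although for all 3 genes both pools of cluster 8 lay below both pools of cluster 1. All 3 passed the adjusted p when only the compared clusters entered the fit, where the differences were -0.61, -0.51 and -0.34. In the list 2 transporters were lower by at least 2-fold. Slc26a7, an anion exchanger of the parietal cell, stood at 59.4 and 66.5 CPM in cluster 8 against 213 and 207 CPM in cluster 1 (log2 difference -1.74 ± 0.18), and DESeq2 did not call it. Kcnj16, an inward rectifier potassium channel, stood at 520 and 611 CPM against 1590 and 1315 CPM (-1.36 ± 0.18). For both genes, both pools of cluster 8 lay below both pools of cluster 1. The anion exchanger Slc4a2, which exports bicarbonate at the basolateral side, was at 1446 and 1625 CPM against 2354 and 2199 CPM (-0.57 ± 0.12).

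Receptors followed the same direction. Of 14 tested members of a list of 15, 8 were lower (3 by 2-fold) and 1 higher than in cluster 1 (median -0.46), and 7 were higher and 6 lower than in the isthmus (median 0.67). Hrh2, the histamine receptor that drives acid output, stood at 101 and 118 CPM in cluster 8, 170 and 169 CPM in cluster 1, and 11.5 and 10.9 CPM in the isthmus (log2 difference from cluster 1 -0.63 ± 0.13). Ptger3, a prostaglandin E receptor that restrains acid secretion, stood at 6.24 and 7.67 CPM against 22.0 and 18.1 CPM (-1.53 ± 0.28). Bmpr1b, a bone morphogenetic protein receptor, stood at 27.3 and 38.5 CPM against 108 and 85.8 CPM (-1.56 ± 0.24). Each of the 3 receptors was thus lower in both pools of cluster 8 than in either pool of cluster 1.

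A list of signalling factors gave a mixed picture. Of 12 listed genes, 4 were lower (1 by 2-fold) and 1 higher than in cluster 1 (median -0.14), and 5 were higher and 5 lower than in the isthmus (median 0.30). Egf, the epidermal growth factor precursor, had the widest gap in the list. It stood at 1.43 and 1.5 CPM in cluster 8, from 8 and 9 UMIs, against 36.6 and 36.9 CPM in cluster 1 and 58.8 and 55.4 CPM in chief cells, 25.1-fold lower than in cluster 1 on the UMIs of both pools (95% exact counting interval 15.5 to 43.4). At 10000 UMIs per cell, 1.25% and 1.46% of cluster 8 cells held an Egf UMI (5.04% and 7.2% at full depth), against 12.3% and 15.5% in cluster 1 and 0.818% and 0.929% in the isthmus, whose median depths were 36868 and 38177 UMIs. Pdgfa, a platelet-derived growth factor, stood at 55.3 and 61.3 CPM in cluster 8 and at 94.9 and 113 CPM in cluster 1 (-0.83 ± 0.15).

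The nuclear receptors of the ERR family, which drive genes of oxidative metabolism, split by member. Esrrg was higher in cluster 8 than in any other epithelial cluster, at 1046 and 998.9 CPM against 753 and 678.5 CPM in cluster 1 (log2 difference 0.51 ± 0.13) and 41.2 and 44.2 CPM in the isthmus. Esrrb ran the other way, at 6.95 and 8.66 CPM in cluster 8 against 31.6 and 30.8 CPM in cluster 1 (-2.0 ± 0.30). Esrra stood at 217 and 228 CPM against 202 and 200.3 CPM (0.15 ± 0.15, not called). Ppargc1a, a coactivator of these receptors and of mitochondrial biogenesis, was lower than in cluster 1, at 89.0 and 89.5 CPM against 180 and 127 CPM (-0.79 ± 0.15). In the list of 14 transcription factors and coactivators, 2 were higher and 2 lower than in cluster 1 (median 0.07), and 12 were higher and 1 lower than in the isthmus (median 2.59).

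Mitochondrial genes divided by the genome that encodes them. Of the 13 protein genes of the mitochondrial genome, 11 were in the files and 8 were tested, and all 8 were lower in cluster 8 than in cluster 1 (4 by 2-fold, median -1.03) and higher than in the isthmus (median 2.02). mt-Cytb, a subunit of complex III, stood at 27222 and 30992 CPM in cluster 8, 58440 and 55859 CPM in cluster 1, and 8555 and 8750 CPM in the isthmus (log2 difference from cluster 1 -0.97 ± 0.09). mt-Nd3, a subunit of complex I, stood at 1128 and 1265 CPM against 3536 and 3320 CPM (-1.52 ± 0.15). By summed level the mitochondrial genome gave 116595 and 129220 CPM in cluster 8 and 252952.5 and 239597 CPM in cluster 1.

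Nuclear genes of the same machinery showed no such drop. Of 78 tested nuclear genes of the respiratory chain and ATP synthase, 23 were higher and 3 lower than in cluster 1, none by 2-fold (median 0.15), and all 78 were higher than in the isthmus (77 by 2-fold, median 2.07). Their summed level was 96162 and 103448 CPM in cluster 8 against 90201 and 92739 CPM in cluster 1 and 23492 and 24848 CPM in the isthmus. Of 28 genes of the citrate cycle and fatty acid oxidation, 9 were higher and 5 lower than in cluster 1 (median 0.09), and 27 were higher than in the isthmus (median 1.97). Idh3a, a subunit of isocitrate dehydrogenase, stood at 870 and 911 CPM against 593 and 606 CPM (0.57 ± 0.09), whereas Hadhb, an enzyme of fatty acid oxidation, stood at 370 and 420 CPM against 593 and 572 CPM (-0.56 ± 0.09). Genes of the mitochondrial ribosome, which translates the mitochondrial transcripts, were higher than in cluster 1 in 50 of 78 members and lower in 0 (median 0.34), and higher than in the isthmus in 72 (median 0.79).

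Because Esrrg and the nuclear respiratory genes were both high in cluster 8, the promoters of those genes were searched on both strands for the ERR motif AAGGTCA and for its extended form TCAAGGTCA, which contains it. These motifs were chosen with the levels known, and a match is a description only. In RefSeq promoters of build GRCm38.p6, running from 250 bases before to 50 after the start, 66 of 79 respiratory genes matched by symbol and had 71 promoters. The short motif was in 8 of these 71 (11.3%) and in 1550 of all 32851 promoters (4.72%). It was in 4.93% of the promoters of genes called higher, and in 1.99% of those called lower, in cluster 8 than in the isthmus, and in 5.16% and 3.19% of those called against cluster 1. The extended form was in 2 of the 71 (2.82%), those of Atp5g3 and Sdhd, and in 139 of all promoters (0.423%). The following stretches upstream of a start site show the short motif in capitals, given on the strand of the gene, where TGACCTT is AAGGTCA read from the opposite strand.
Atp5g3, chr2:73911346-73911405, minus strand: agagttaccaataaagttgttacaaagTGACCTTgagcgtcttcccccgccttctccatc
Ndufb2, chr6:39592357-39592416, plus strand: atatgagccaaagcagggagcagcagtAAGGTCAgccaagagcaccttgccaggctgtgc
Ndufb4, chr16:37654391-37654450, minus strand: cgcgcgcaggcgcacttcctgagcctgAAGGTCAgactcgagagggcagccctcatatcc

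Atp5g3, which encodes a membrane subunit of ATP synthase, stood at 4676 and 4975 CPM in cluster 8, 3514 and 3681 CPM in cluster 1, and 1040 and 1125 CPM in the isthmus. Ndufb2, a complex I subunit, stood at 417 and 437 CPM in cluster 8, 342 and 356 CPM in cluster 1, and 111 and 117 CPM in the isthmus. Ndufb4, another complex I subunit, stood at 107 and 105 CPM in cluster 8, 93.4 and 104 CPM in cluster 1, and 30.4 and 28.2 CPM in the isthmus. Of these 3, Atp5g3 and Ndufb2 were called higher than in cluster 1, and Ndufb4 was not (log2 difference 0.10 ± 0.09). Among the 5 other genes with the motif, Atp5e was at 682 and 744 CPM in cluster 8 against 714 and 782 CPM in cluster 1. Its pools overlapped, and it was not called (log2 difference -0.07 ± 0.09). All 8 stood higher in both parietal clusters than in the isthmus.

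Genes of protein synthesis were higher in cluster 8 than in cluster 1 and lower than in the isthmus. Of 77 tested cytosolic ribosomal protein genes, 70 were higher and 0 lower than in cluster 1 (5 by 2-fold, median 0.65), while 3 were higher and 63 lower than in the isthmus (median -0.56). Their summed level was 28003 and 25408 CPM in cluster 8, 16591 and 17636 CPM in cluster 1, and 37676 and 38566 CPM in the isthmus. Ribosomal protein genes have many near-identical pseudogenes, so values of single members are uncertain. Of 19 translation factors, 13 were higher than in cluster 1 (median 0.44) and 16 lower than in the isthmus (median -0.37). Eef1g, a subunit of the elongation factor that delivers aminoacyl-tRNA, stood at 256.5 and 211 CPM in cluster 8 against 135 and 124 CPM in cluster 1 (log2 difference 0.85 ± 0.09) and 444 and 432 CPM in the isthmus.

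Proliferation genes were lower in cluster 8 than in the isthmus, and some were higher than in cluster 1. Of 27 listed genes, all 27 were lower than in the isthmus (26 by 2-fold, median -2.76), and 8 were higher and 1 lower than in cluster 1 (3 higher by 2-fold, median 0.33). Mki67, a marker of cycling cells, stood at 7.67 and 4.999 CPM in cluster 8, 4.87 and 3.25 CPM in cluster 1, and 216 and 213 CPM in the isthmus. Ccnd1, the cyclin D1 of the G1 phase, had the widest gap above cluster 1 in this list: 55.3 and 61.3 CPM in cluster 8 against 13.8 and 17.7 CPM in cluster 1 (log2 difference 1.91 ± 0.12) and 128 and 131 CPM in the isthmus. Its level in cluster 8 was below that of pit cluster 13 (119 and 117.5 CPM) and neck cluster 0 (123 and 131 CPM), so Ccnd1 was high in clusters of other differentiated cells too. Ccnd2, another D-type cyclin, stood at 98.0 and 98.3 CPM against 53.2 and 66.6 CPM in cluster 1 (0.72 ± 0.14). Hmgb2, a chromatin protein enriched in cycling cells, stood at 29.2 and 27.5 CPM against 12.98 and 14.02 CPM in cluster 1 (1.08 ± 0.14) and 276 and 288.5 CPM in the isthmus.

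Immediate early genes, which respond within minutes to handling and to growth signals, were higher in cluster 8 than in cluster 1 but near the isthmus level. Of 13 listed genes, 8 were higher than in cluster 1 (7 by 2-fold, median 1.14) and 0 lower, while 1 was higher and 5 lower than in the isthmus (median 0.07). Fos, a component of the transcription factor AP-1, stood at 905 and 550 CPM in cluster 8, 244 and 290 CPM in cluster 1, and 1097 and 1316 CPM in the isthmus (log2 difference from cluster 1 1.45 ± 0.26). In cluster 8 the list summed to 6128 CPM in pool K and 4284 CPM in pool T, and in cluster 1 to 2077 and 2734 CPM, so the gap was wider in pool K. What the dissociation added to these levels was not tested.

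Other response lists differed less. Among 8 heat shock genes 2 were higher and 0 lower than in cluster 1 (median 0.64), and 1 was higher and 2 lower than in the isthmus (median -0.22). Among 7 measured genes of the integrated stress response 2 were higher (median 0.65), including Asns, asparagine synthetase, at 212 and 203 CPM against 115 and 119 CPM (log2 difference 0.83 ± 0.09). Against the isthmus, 1 of these was higher and 2 lower (median 0.01). Among 13 genes of ER folding 0 were higher and 3 lower than in cluster 1 (median -0.11), and 3 were higher and 9 lower than in the isthmus (median -0.54). Among 14 genes of cell death and damage response 3 were higher and 0 lower than in cluster 1 (median 0.20), and 6 were higher and 7 lower than in the isthmus (median -0.40).

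Lysosomal and structural genes completed the picture. Of 20 lysosome and autophagy genes, 9 were lower and 2 higher than in cluster 1 (median -0.16), and 16 were higher than in the isthmus and 2 lower (median 0.66). Ctsz, the lysosomal protease cathepsin Z, was one of the higher ones, at 40.1 and 33.8 CPM against 15.5 and 17.6 CPM in cluster 1 (log2 difference 1.17 ± 0.15). Of 10 tested keratin and junction genes, 1 was higher and 2 lower than in cluster 1 (median 0.01). The higher one was Krt19, a keratin of simple epithelia, at 440 and 428 CPM in cluster 8, 172 and 199 CPM in cluster 1 (1.23 ± 0.26), and 1240 and 1382 CPM in the isthmus, where the list had 1 member higher and 6 lower (median -0.67). Of 15 actin and microvillus genes, 3 were higher and 0 lower than in cluster 1 (median 0.21), and 2 were higher and 10 lower than in the isthmus (median -0.38).

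Transcripts of other gastric cells were examined list by list. Of 6 chief cell genes 2 were higher than in cluster 1 (median 0.27) and 3 lower than in the isthmus (median -0.61). These 2 were Pgc, with a log2 difference of 1.30 ± 0.12, and Pga5, a pepsinogen A gene, at 215 and 102 CPM against 50.2 and 56.2 CPM (1.58 ± 0.25). Cblif, the intrinsic factor of mouse chief cells, was not called at 61.3 and 28.7 CPM against 26.2 and 28.2 CPM (0.72 ± 0.39). Of 5 neck cell genes 1 was higher than in cluster 1 (median -0.31) and all 5 were lower than in the isthmus (median -2.86). The higher one was Sox9, a transcription factor also made by progenitors, at 257 and 204 CPM against 138 and 160 CPM (0.63 ± 0.12). Of 7 pit cell genes 1 was lower than in cluster 1 (median -0.50), and 1 was higher and 5 lower than in the isthmus (median -4.78). The 9 endocrine and tuft cell genes summed to 51.5 and 53.8 CPM in cluster 8, where Ghrl was the most abundant at 25.1 and 24.7 CPM, and 1 of the 3 tested was lower than in cluster 1. The 11 of 13 stromal, endothelial and immune genes with a UMI in the epithelial sums added up to 0 and 0.833 CPM, with 0 called in the 1 tested, and the 4 of 5 red blood cell genes with one to 0 in both pools.

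Free RNA in the wells was gauged from clusters 14 to 19, which are not pit, isthmus, neck, chief or parietal cells, and from the 615 wells under the study's minimum of 2500 detected genes. These clusters can still hold other epithelial cells, such as endocrine and tuft cells, so they are a gauge and no true blank. Pgc was present everywhere. Clusters 14 to 19 held 6145 and 6848.5 CPM of Pgc, here without TMM scaling, in pools K and T, against 14042 and 9665 in cluster 8 and 3735 and 4533 in cluster 1. In the wells under 2500 genes Pgc made up more of the UMIs than in cluster 8, 23355 and 28121 CPM, and in clusters 18 and 19 alone (12 and 10 cells) 8526 and 11640 CPM, above cluster 8 in pool T. Per well, the mean was 99.8 and 112 Pgc UMIs in clusters 14 to 19, 65.9 and 70.6 in the wells under 2500 genes, 171 and 222 in cluster 1, and 724 and 523 in cluster 8. Cluster 8 wells thus held more Pgc UMIs than these 3 sets, but not a larger share of Pgc than the wells under 2500 genes. What free RNA adds to Pgc in cluster 8 was not tested.

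The ratios between such transcripts differed as well. There were 73.9 and 27.04 Pgc UMIs per UMI of Gkn2, a pit cell protein, in cluster 8, against 8.19 and 15.9 in cluster 1, 11.3 and 12.6 in clusters 14 to 19 and 5.50 and 7.67 in the wells under 2500 genes. There were 250.3 and 380.0 Pgc UMIs per Cblif UMI in cluster 8, against 187 and 205.5 in cluster 1, 138 and 168 in clusters 14 to 19, 147 and 170.5 in the wells under 2500 genes, and 11.7 and 12.04 in chief cells. Relative to Gkn2 and Cblif, Pgc was therefore higher in cluster 8 than in clusters 14 to 19 and in the wells under 2500 genes.

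Shares of cells with a UMI were compared after thinning each cell to 10000 UMIs, from median depths of 50751 and 51763 in cluster 8 and of 15711 and 15282 in clusters 14 to 19. Shallower cells were left out, 1 and 0 in cluster 8, 0 and 0 in cluster 1, and 18 and 14 in clusters 14 to 19. Cblif was found in 24.2% and 22.4% of cluster 8 cells and in 24.3% and 23.9% of cells of clusters 14 to 19, a similar share, but in 13.4% and 14.2% of mature pit cells (median depths 43361 and 44629 UMIs). Gkn2 was found in 80.5% and 83.4% against 96.1% and 96.4%, and Muc5ac, the surface mucin, in 17.02% and 20.9% against 29.5% and 25.4%, both lower in cluster 8. Muc6, the neck mucin, was found in 15.8% and 12.5% against 10.1% and 11.7%, and Mki67 in 3.83% and 4.76% against 5.67% and 4.17%. In cluster 1 the shares were 18.8% and 17.97% for Cblif, 87.1% and 89.9% for Gkn2, 21.8% and 19.4% for Muc5ac, 8.56% and 9.49% for Muc6, and 1.85% and 2.56% for Mki67. Cluster 8 thus had larger shares than cluster 1 for Cblif, Muc6 and Mki67 in both pools and a smaller one for Gkn2. Before thinning, the shares in cluster 8 were 63.0% and 66.4% for Cblif, 40.3% and 39.2% for Muc6, 100% for Gkn2 in both pools, 58.0% and 63.2% for Muc5ac, and 11.8% and 17.6% for Mki67. Pgc was in every cell of each group after thinning, so its share says nothing. No cluster 8 cell reached 0.25 of the chief cell median of Cblif, 13 reached 0.25 of the chief cell median of Pgc, and 2, 3 and 4 cells reached 0.25 of the Muc6, Muc5ac and Mki67 medians of neck, mature pit and cluster 6 cells. Of the 458 cells of cluster 1, 0 did so for Cblif, 2 for Pgc, 5 for Muc6, 3 for Muc5ac and 2 for Mki67.

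By fold, the genes furthest above cluster 1 were Bpifb5, Angptl8, Cpne7, Bpifb1, Fzd9, Slc1a2, Elovl6, Mfsd2a, Igfbp5 and Celf4. Most were scarce. Bpifb1, a secreted protein of mucosal surfaces, was abundant, at 975.5 and 803.5 CPM in cluster 8 against 61.6 and 90.6 CPM in cluster 1 (log2 difference 3.56 ± 0.31). Bpifb1 was also high in neck clusters, reaching 1488 and 2912.5 CPM in cluster 12, and its share of cells at 10000 UMIs was 78.4% and 75.2% in cluster 8, 67.04% and 77.4% in the neck clusters, 38.01% and 46.03% in the isthmus, 16.96% and 19.9% in cluster 1 and 6.28% and 12.4% in clusters 14 to 19. Elovl6, an enzyme of fatty acid elongation, stood at 32.6 and 43.7 CPM against 4.77 and 4.13 CPM (3.08 ± 0.26), close to its isthmus level of 35.0 and 32.8 CPM. Slc1a2, a glutamate transporter, stood at 19.4 and 18.3 CPM against 2.13 and 1.77 CPM (3.24 ± 0.32), with 0.870 and 1.09 CPM in the isthmus. Angptl8, a regulator of lipoprotein lipase, stood at 10.7 and 6.00 CPM against 0.203 and 0.295 CPM, 34.4-fold higher on the UMIs of both pools (95% exact counting interval 13 to 129). Cluster 1 held few UMIs of the others: Bpifb5 was 53.0-fold higher (8.94 to 2149) over 1 UMI, and the Wnt receptor gene Fzd9 11.5-fold (4.52 to 37.2) over 5.

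The genes furthest below cluster 1 were Meg3, Rian, Abcg1, Wnt4, Egf, Tex15, Tmem178, Lrrn1, Nog and Pla2g4f. Meg3 is a long noncoding RNA of an imprinted locus, at chr12:109506877-109538165 on the plus strand of GRCm39. It had 1 and 2 UMIs in all of cluster 8 (0.178 and 0.333 CPM) against 1012 and 530 UMIs in cluster 1 (103 and 78.2 CPM), 359-fold lower on the UMIs of both pools (95% exact counting interval 122.5 to 1742). Meg3 UMIs came from 1 of 119 and 2 of 125 cells of cluster 8, and from 51 of 281 (18.1%) and 29 of 177 (16.4%) cells of cluster 1. Rian, the next noncoding gene of the locus (chr12:109570242-109628150), and Mirg, another of its transcripts, had 0 UMIs in both pools of cluster 8 and 60 and 24 (Rian) and 29 and 17 (Mirg) in cluster 1. The isthmus held 0.419 and 0.375 CPM of Meg3, and no epithelial cluster other than cluster 1 held more than 3.79 CPM, so the low level was not particular to cluster 8. Clusters 14 and 16 held the most Meg3, 1261 to 1562 CPM without TMM scaling. With Meg3 lower, the list of 4 tested nuclear noncoding RNAs had 1 lower member and a median of -0.75 against cluster 1, and 2 higher and 1 lower against the isthmus (median 0.12).

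The other low genes also had few UMIs in cluster 8, and their folds are given on the UMIs of both pools with 95% exact counting intervals. Abcg1, a cholesterol exporter, was at 0.178 and 0.167 CPM against 11.2 and 10.9 CPM, 64.2-fold lower (17.5 to 534). Nog, the antagonist noggin of bone morphogenetic proteins, was at 0.178 and 0.333 CPM against 4.87 and 7.53 CPM, 23.04-fold lower (7.66 to 114). Wnt4, a secreted Wnt ligand, had 0 UMIs in cluster 8 and 1.014 and 1.77 CPM in cluster 1, at least 1.90-fold lower with each pool of cluster 8 set to a floor of 3 UMIs. Tex15 stood at 0.713 and 1.00 CPM against 22.2 and 19.8 CPM, 24.6-fold lower (13.2 to 51.8). Lrrn1 stood at 1.78 and 1.00 CPM against 35.5 and 28.8 CPM, 23.8-fold lower (14.5 to 41.9). In the isthmus Abcg1 stood at 0.645 and 0.925 CPM, Tex15 at 0.14 and 0.075 CPM, and Lrrn1 at 0.033 and 0.023 CPM. Nog was at 0 CPM there in both pools, and Wnt4 at 1.11 and 1.66 CPM. For each of these genes both pools of cluster 8 lay below both pools of cluster 1, but the genes were chosen for the same direction in both pools.

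By any margin, 979 genes were higher in cluster 8 than in every other epithelial cluster, against 63 to 1698 such genes in the others. Only a small set was at least 2-fold higher in cluster 8. Of 10692 genes with at least 10 UMIs in both of its pools, 9 were at least 2-fold above each of the other 13 clusters, against 0 to 5 in 8 of the other clusters (pre-pit, all neck and isthmus clusters 9, 3 and 11), 14 and 26 in isthmus clusters 6 and 5, 98 in cluster 1, 131 in mature pit cells and 221 in chief cells. Ordered by their smallest log2 difference, the first 10 were Cpne7, 1700016F12Rik, Slc5a2, Kcnh2, Dusp9, Ripor3, Prcd, Rom1, Cav1 and Bdh1, the tenth just under 2-fold at 0.98. In all 10 the next highest cluster was cluster 1. Cpne7, a calcium-dependent phospholipid-binding protein, stood at 10.2 and 8.999 CPM in cluster 8 and at 0.507 and 0 CPM, from 5 and 0 UMIs, in cluster 1, 31.8-fold higher (95% exact counting interval 13.2 to 99.9). Kcnh2, a voltage-gated potassium channel, stood at 28.4 and 43.3 CPM against 9.33 and 15.9 CPM (1.53 ± 0.30). Bdh1, a mitochondrial enzyme of ketone body metabolism, stood at 312 and 347 CPM against 158 and 153 CPM (1.08 ± 0.11). Against the isthmus the widest gaps upward were Cst8, Angpt2, Gm15241, Obp2a and Cst11, which cluster 1 also held, and the widest downward were Kctd15, Psapl1, Serpinb5, Nsl1 and Tspan2, all with 0 UMIs in cluster 8. The 10 most abundant genes of cluster 8 were mt-Cytb, mt-Nd1, mt-Nd4, Atp4a, mt-Nd2, Atp4b, mt-Co1, mt-Rnr2, Pgc and Psca.

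The place of cluster 8 between the isthmus and cluster 1 was described gene by gene on the log2 scale, with 0 at the isthmus mean and 1 at cluster 1, for genes at least 4-fold apart. Of 977 genes higher in cluster 1 than in the isthmus, 723 (74.0%) lay between in both pools, 128 beyond cluster 1, 8 beyond the isthmus and 118 differed between pools. Their median position was 0.80 in pool K and 0.86 in pool T. Of 1542 genes lower in cluster 1, 694 (45.0%) lay between in both pools, 275 beyond cluster 1, 5 beyond the isthmus and 568 differed, with medians of 0.91 and 0.94. Cluster 8 thus stood nearer to cluster 1 in both directions, and short of it more often for genes that cluster 1 held high. The genes were picked for their gap between cluster 1 and the isthmus in these same sums. Genes low in cluster 1 can have few UMIs there, and more of them differed between pools, so 74.0% and 45.0% are not directly comparable. For genes not between, cluster 8 was far more often beyond cluster 1 than beyond the isthmus. With position and both ends read from the same pools, no test was made.

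**Figure D3:**
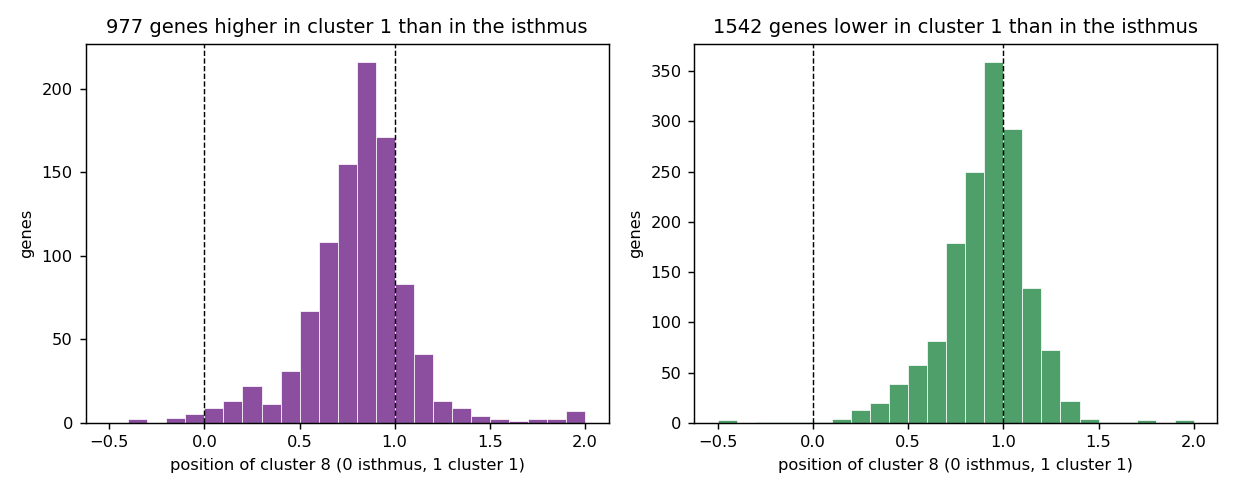
Number of genes (y axis) by position of cluster 8 between the isthmus mean (0) and cluster 1 (1), on log2 CPM averaged over the pools, for 977 genes at least 4-fold higher and 1542 at least 4-fold lower in cluster 1. Positions past either end of the axis are counted in the outermost bars. Both distributions peak below or at 1, at medians of 0.83 and 0.93.

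Within cluster 8 the cells varied widely. Pgc had a median of 87.1 and 59.2 UMIs per 10000 in pools K and T, with 5th percentiles of 18.9 and 19.0 and 95th percentiles of 480 and 442. In cluster 1 the medians were 24.4 and 25.6 and the 95th percentiles 76.4 and 82.1. Of the 244 cells, 107 lay above the 95th percentile of cluster 1 and 27 below its median. Ribosomal protein UMIs had medians of 241 and 208 per 10000 in cluster 8 and 119 and 132 in cluster 1.

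These measures were related across cells of cluster 8. Spearman's rho between Pgc and the mitochondrial share was -0.61 in K and -0.60 in T, against 0.30 and 0.26 in cluster 1, where Pearson's r was -0.13 and -0.06. Between ribosomal protein UMIs and the mitochondrial share rho was -0.74 and -0.83 in cluster 8 and -0.61 and -0.68 in cluster 1. Fos and the mitochondrial share gave -0.32 and -0.49 against -0.14 and -0.18, and Atp4b and the mitochondrial share 0.51 and 0.39 against 0.36 and 0.17. Pgc and Bpifb1 gave 0.62 and 0.63 against 0.31 in both pools of cluster 1. Pgc and Gkn2 gave -0.15 and 0.16, with opposite signs in the pools, against 0.27 and 0.23. All are shares of the same UMIs of a cell, so part of each relation can be fixed by the others. Depth moved little with the mitochondrial share in cluster 8 (-0.14 and -0.07) and more in cluster 1 (-0.68 and -0.75).

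**Figure D4:**
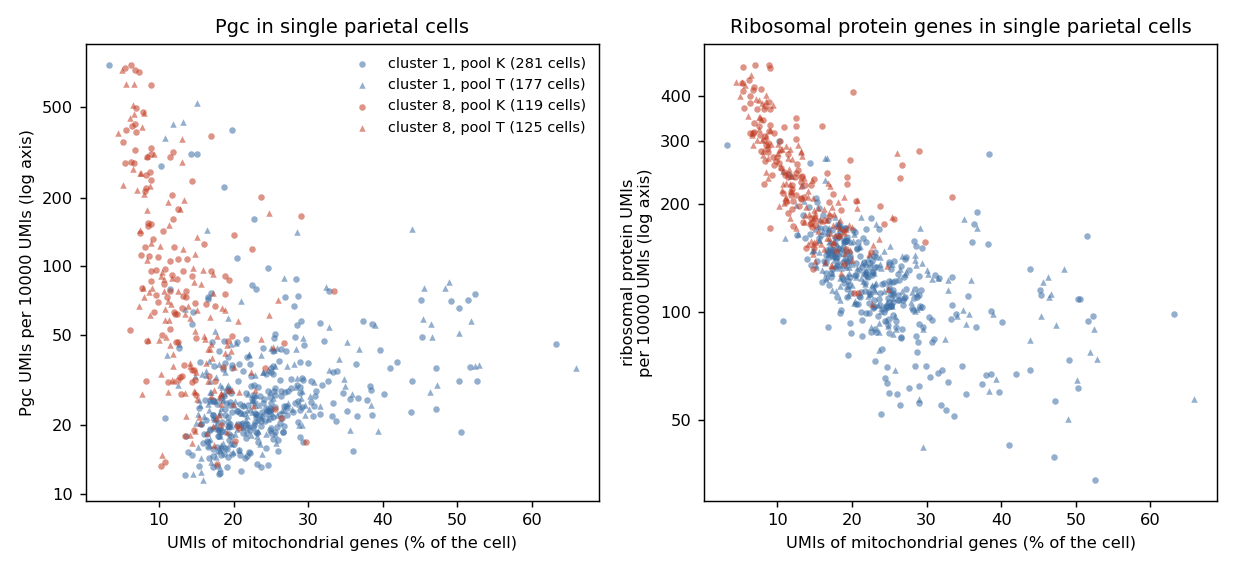
Each point is a parietal cell of dataset 2, placed by its share of mitochondrial UMIs (x axis, %) and its Pgc (left) or ribosomal protein UMIs (right) per 10000 UMIs on a log axis; red is cluster 8, blue cluster 1, circles pool K and triangles pool T. Cluster 8 runs from low mitochondrial share with high Pgc and ribosomal protein UMIs into the edge of cluster 1, and 107 of its 244 cells lie above the 95th percentile of cluster 1 for Pgc.

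Dataset 1 gave cells that the clustering of dataset 2 had not used. Its 57 parietal cells (the study's cluster 0) were ordered within each pool by a score, the mean log2 level of 132 genes called higher minus that of 173 called lower in cluster 8 than in cluster 1, and split at the pool's median into an upper set (8 and 20 cells) and a lower set (9 and 20 cells). The sets are ranges of a score, not cell types, and 11 cells lay within 0.25 SD of the split. Only genes outside the score, which also held no list member, were tested, on UMIs summed per set and pool. The median mitochondrial share was 12.5% and 14.9% in the upper set and 21.4% and 21.1% in the lower set, and the median depth 73724.5 and 69858.5 against 52893 and 50992 UMIs. The part of depth in these differences was not tested.

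Genes called between the clusters of dataset 2 mostly differed in the same direction between these sets, though few passed. The split itself used the expression of other genes from the same calls. Genes that vary together with those differ between the sets through the split, so directions and adjusted p-values here are no independent test. Of 305 called genes outside the score, 90 could be tested, and 5 of these passed the adjusted p. Of 34 higher in cluster 8, 33 lay above zero in the upper set (median log2 difference 0.76), and of 56 lower in cluster 8, 54 lay below (median -0.75), against a median of 0.00 over all 7321 genes. By edgeR with Benjamini-Hochberg adjustment 23 of the 7321 genes passed (0.314%), 5 higher (0.0683%) and 18 lower (0.246%) in the upper set, and 8 did so by at least 2-fold (0.109%), 3 higher (0.041%) and 5 lower (0.0683%). With the pool as a block 35 passed, 17 of them by 2-fold. The counts hung on single sums: without the upper set of pool 1, 12 passed (5 by 2-fold), without that of pool 2, 94 (66), and without the lower set of pool 1 or pool 2, 134 (51) and 97 (52). At an unadjusted p under 0.05 there were 780 genes.

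**Figure D5:**
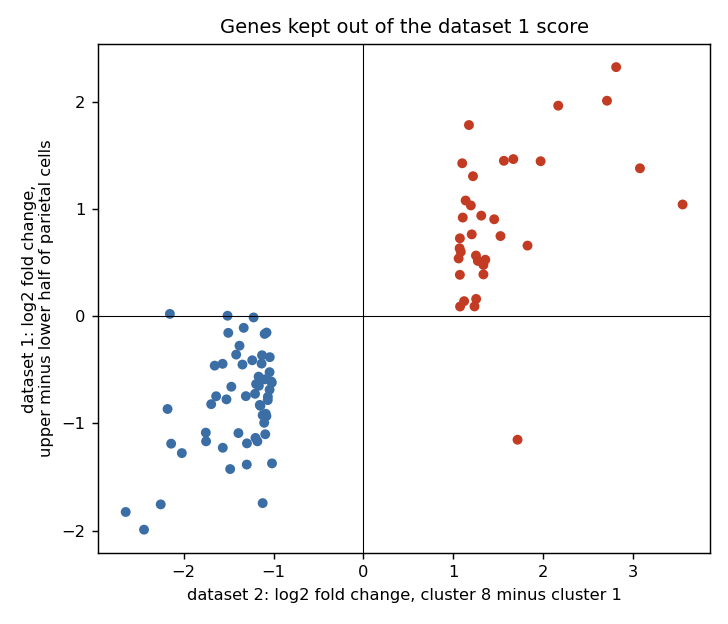
Each point is 1 of 90 genes called between clusters 8 and 1 in dataset 2 and kept out of the dataset 1 score. The score used other genes of the same calls. The x axis is the log2 fold change of cluster 8 minus cluster 1 and the y axis that of the upper minus the lower set of dataset 1 parietal cells; of the 34 genes at right 33 lie above zero, and of the 56 at left 54 lie below.

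The named genes were in part the same as in dataset 2. Meg3 was at 0 CPM in both upper sums and at 26.8 and 24.8 CPM in the lower sums (edgeR adjusted p = 0.01752). Slc26a7 stood at 55.4 and 45.5 CPM in the upper against 150 and 102.5 CPM in the lower set (log2 difference -1.30 ± 0.23, edgeR adjusted p = 0.04884), and was lost without the upper set of pool 1 (-1.41) or of pool 2 (-1.14). Kcnj16 stood at 375 and 484 CPM against 709 and 786 CPM (-0.79 ± 0.14, edgeR adjusted p = 0.04724), and was lost without the upper set of pool 1 (-0.63). Of the 8 mitochondrial genome genes tested 7 were lower and none higher, mt-Cytb at 22455 and 31265 CPM against 52496 and 47842 CPM (-0.90 ± 0.14, edgeR adjusted p = 0.02543). These protein genes were kept out of the score, but other mitochondrial transcripts, such as transfer RNAs, were not. What such transcripts added to the split was not tested. Of 59 ribosomal protein genes tested 56 lay above zero (median 0.39), and 2 passed, Rplp0 (0.60 ± 0.11, edgeR adjusted p = 0.04999) and Rps24 (0.64 ± 0.11, edgeR adjusted p = 0.04444), both lost without the upper set of pool 1 (0.59 and 0.60).

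Other genes did not pass or went another way. Pgc stood at 4152 and 3171 CPM against 2443 and 800 CPM (1.20 ± 0.36, edgeR adjusted p = 0.2461), Fos at 612 and 389 CPM against 159 and 267 CPM (1.15 ± 0.24, edgeR adjusted p = 0.09429) and Ccnd1 at 26.9 and 29.6 CPM against 8.94 and 12.4 CPM (1.33 ± 0.36, edgeR adjusted p = 0.1987), each with both upper sums above both lower sums. Atp4b stood at 15899 and 15721 CPM against 19113 and 18519 CPM (-0.25 ± 0.09, edgeR adjusted p = 0.3346), with both upper sums below both lower sums. Bpifb1 stood at 204 and 251 CPM against 219 and 41.4 CPM (1.05 ± 0.48, edgeR adjusted p = 0.4742), with overlapping sums. Gstm1, a glutathione transferase, was higher in the upper set (1.03 ± 0.16, edgeR adjusted p = 0.0262) but lower in cluster 8 than in cluster 1, by -0.85 on the log2 scale. Foxq1 (2.86) and Mt2 (3.31), a transcription factor and a metallothionein, passed in dataset 1. Between clusters 8 and 1 of dataset 2 they differed by 0.44 and 0.02 on the log2 scale.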

How the data were processed

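The authors deposited whole UMI counts per gene and well for every plate, aligned with STAR to GRCm39 (Gencode M27) after barcode handling by Drop-seq tools and FASTX-Toolkit, and demultiplexed with bcl2fastq 2.20.0.422 (submitters' processing notes). They also deposited Seurat cell annotations with cluster numbers, the percent of mitochondrial UMIs, phases and cycle scores (S and G2/M score, on no fixed scale) by the authors, after removing wells under 2500 detected genes. Cells were matched to plates by barcode, and totals were equal for all 4484 annotated cells. UMIs of all 14 epithelial clusters were summed per pool (28 sums) and fitted with edgeR 4.0.16 (R 4.3.3, TMM, filterByExpr, glmQLFTest), one term per cluster. The fit was also run on simulated counts. These had no pairing by pool and no clusters drawn from the counts, so that run does not cover these features. Isthmus CPM is the mean over 5 clusters, and the contrast averages their log2 values. Pools were mice pooled by 3, so edgeR's p-values measure the spread between sums of these pools. The permutation p-values measure the spread between plates, which share their mice within a pool. The pools pair the clusters, since both come from the same mice: over 91 pairs of clusters the deviations of the pools correlated with a median r of 0.11 (-0.01 to 0.30), and 0.11 for clusters 8 and 1. The members and lists were chosen with earlier results of these data known. The genes named were list members, the 10 widest differences each way against cluster 1 and 5 each way against the isthmus among called genes with the same direction in K and T and 10 UMIs in each pool of the cluster that was higher, the 10 most above all other clusters, the 10 most abundant, and the named markers. The list members given values, and the genes called in dataset 1, were picked with their values seen. Gene positions on GRCm39 came from a GENCODE annotation of a later release. Position used log2(CPM + 1). Alternatives were DESeq2 1.42.0, other scaling, filters, units and cells, and left-out pools. Intervals and floors cover counting error only.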

Additional observations from a re-analysis of the deposited data

How the results depend on the processing

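No fold change of a named gene changed sign under the alternatives run, but the balance of calls against cluster 1 did: more were lower than higher in the main result, and more higher than lower with the plate as the unit. For cluster 8 against cluster 1 the 672 calls became 431 with the plate as the unit, where 9940 genes were tested and 401 of the 417 testable calls remained, and the 381 lower calls became 206. Leaving out 1 pool of either cluster gave 441 to 702 calls (197 to 302 higher and 244 to 400 lower), the fewest without replicate 1 (pool K) of cluster 8, where the lone sum is assumed to vary like the others. Against the isthmus the range was 4295 to 4572 (2030 to 2179 higher, 2265 to 2393 lower). The share of higher among the calls against cluster 1 moved from 43.3% to 52.2% with the plate as the unit, and to between 41.26% and 49.71% otherwise.

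The dataset 1 sets were the least stable, and the causes were not tested. The 8 calls at 2-fold became 53 with the cells of middle score left out, 74 with no filter, 4 with DESeq2, and 5 to 66 without 1 of the 4 sums, the last chosen after seeing the data. The 23 calls of any size became 114, 181 and, without 1 sum, 12 to 134. With the pool as replicate block they became 17 and 35; the replicate block moved no other count by over 1.5 times.

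The pool difference in the share of parietal cells ranged from -15.01 to -10.68 points over left-out plates (exact permutation p 0.004329 to 0.0303), and that in the mitochondrial share from -2.15 to -1.25 (p 0.06061 to 0.2208) and was -0.47 by plate means. With genes 2-fold apart the median position of genes lower in cluster 1 was 0.904. Without thinning, 64.7% of cluster 8 cells held Cblif, 39.8% Muc6, 100% Gkn2 and 60.6% Muc5ac.

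Of 926 values of 74 named genes against cluster 1 under alternatives, 879 kept their direction and side of the threshold, 36 lost and 11 gained the call, and all 194 against the isthmus kept both. For the dataset 1 sets, 98 of 113 values of 12 genes kept both and 15 lost the call. Folds of genes with few UMIs in one cluster are imprecise, as their counting intervals show.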
